A study of Mus musculus with 4 samples.

Results

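The genes of the proteasome were read in follicular helper T (TFH) cells that lacked Rictor and in their WT counterparts. They were chosen by name: every gene whose symbol starts with Psma, Psmb, Psmc, Psmd, Psme, Psmf or Psmg and a digit, and Pomp, each read by its brightest probe set. The rule gave 50 of the 18193 genes on the array, of which 4 belong to the immunoproteasome. Rictor is the subunit that defines mTOR complex 2, a kinase complex that phosphorylates AKT. Rictor-/- mice carried Rictor fl/fl alleles and a Cre transgene driven by the Cd4 promoter, which also deletes the gene in CD8+ T cells, and WT mice were their Rictor fl/fl littermates without it. Both groups had been infected with the Armstrong strain of LCMV, an acute infection of mice, and TFH cells were sorted from their spleens at day 8. Each group had 2 arrays, labelled as biological replicates, and each sample was pooled from several mice, so that spread between single animals is not seen. The sources used here do not state the sorting gate for these samples.

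The proteasome degrades proteins that carry ubiquitin chains. Its 20S core is a barrel of outer rings built from alpha subunits, which gate the entrance, and inner rings built from beta subunits, of which Psmb6 (beta1), Psmb7 (beta2) and Psmb5 (beta5) carry the cutting sites. The 19S cap binds ubiquitin chains, unfolds the substrate with a ring of ATPases and feeds it into the core. In lymphocytes and in cells exposed to interferon-gamma, Psmb9 (beta1i), Psmb10 (beta2i) and Psmb8 (beta5i) take the places of the constitutive catalytic subunits in newly built cores. This immunoproteasome, with the PA28 cap of Psme1 and Psme2, favours peptides that fit MHC class I molecules.

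Of the 50 proteasome genes, 26 rose in Rictor-/- TFH cells and 0 fell at an adjusted p under 0.05, against 12.5% of all genes that rose and 7.19% that fell. The rises were small. None reached 1.5-fold, and the median log2 fold change of the 50 genes was 0.17, against 0.0068 over all genes tested. Of the 26, 13 were genes of the constitutive 20S core, which has 14, while 7 of 17 subunits of the 19S cap and 0 of 4 immunoproteasome genes passed. Both Rictor-/- arrays lay above both WT arrays for 36 of the 50 genes, where 30.6% of all genes did so, and below both for 5, where 24.9% of all genes did so. The tests were moderated tests of limma, adjusted over all genes. They used log2 values of the intensity plus 16, so that fold changes of dim genes are understated. Fits with an array left out called fewer genes, over the whole array as well as among the proteasome genes. With WT array 1 left out 12 proteasome genes passed as higher, and with WT array 2 left out 9 did, while the median over the 50 genes was 0.21 and 0.16.

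**Figure D1:**
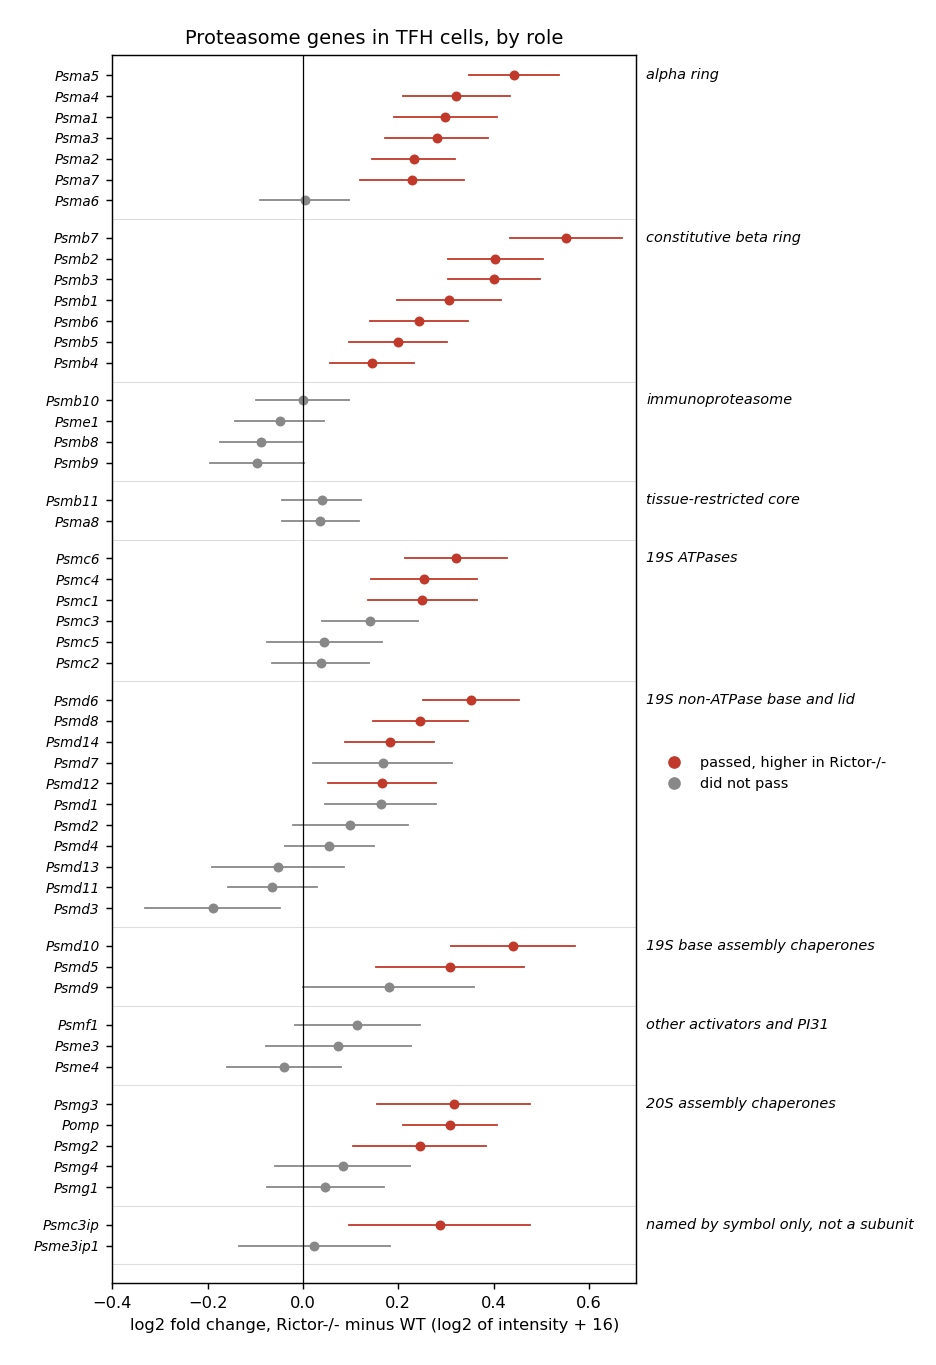
Log2 fold change of each proteasome gene, Rictor-/- minus WT, on the x axis, with the genes in rows grouped by role. Points are limma estimates from 2 arrays per group, lines are 95% confidence intervals, and red marks genes that passed at an adjusted p under 0.05. All genes of the constitutive beta ring lie right of 0, and the immunoproteasome genes lie at or left of it.

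Facts of the arrays bear on these values. Array medians ran from 19.98 to 20.40, replicates correlated at 0.998 and arrays of different groups at 0.993 to 0.994. Rictor read 267 and 279 in Rictor-/- arrays, against 334 and 303 in WT arrays, a log2 fold change of -0.21 (adjusted p = 0.0366). The paper reports that Rictor mRNA could not be detected in TFH cells sorted from Rictor-/- mice. The sources used here do not state which exons the Rictor probe set covers. How complete the deletion was cannot be read from these array values and was not tested here. Bright genes were called more often. Among the 4444 genes with a mean intensity of at least 200, a limit chosen after the values were seen, 27.5% rose and 20.4% fell, and 25 of the 45 proteasome genes above that limit rose. In arrays of bulk RNA, a different mix of cells and a different RNA content per cell cannot be told apart.

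Some of the genes listed as markers of other cells, and the genes of dividing cells, moved with the genotype. Whether the signal of the listed markers came from other cells was not tested. All 15 genes of the mitosis list rose (median log2 fold change 0.52), for example Cdk1, which read 271 and 249 in Rictor-/- arrays, against 125 and 130 in WT arrays. Of 7 CD8 and NK genes 4 rose, of 16 myeloid and dendritic genes 5, and of 11 B and plasma cell genes 4 rose and 1 fell. Over all genes 12.5% rose and 7.19% fell, and 27.5% and 20.4% among those with a mean intensity of at least 200. Jchain, of plasma cells, read 378 and 353 in Rictor-/- arrays, against 126 and 113 in WT arrays, and Itgax, which encodes CD11c, read 145 and 142 in Rictor-/- arrays, against 54.35 and 45.64 in WT arrays. Fcgr3, Lyz2 and Cd8b1 also rose, by 1.26, 0.77 and 0.53 on the log2 scale, while Cd8a, Ncr1, Ms4a1, Cd79a and C1qb read between 4.96 and 25.2 on every array. The summed intensity was 4325 and 4367 in Rictor-/- arrays, against 2908 and 2817 in WT arrays, for the mitosis list, 4222 and 4011 against 2988 and 2761 for the CD8 and NK list, 3056 and 2868 against 2785 and 2766 for the myeloid list, and 1411 and 1462 against 1278 and 1203 for the B cell list. Without their brightest gene, left out after the values were seen, the sums were 657 and 592 in Rictor-/- arrays, against 381 and 372 in WT arrays, for the myeloid list without Ctss, and 593 and 551 in Rictor-/- arrays, against 262 and 250 in WT arrays, for the B cell list without Xbp1, which fell. Most of the CD8 and NK sum was Nkg7, with 3626 and 3487 in Rictor-/- arrays, against 2602 and 2385 in WT arrays. Of 11 T cell and TFH genes 8 fell. They included Bcl6 and Cxcr5, which mark TFH cells, and the general T cell genes Cd3e (log2 fold change -0.32), Cd4 (-0.26) and Cd5 (-0.47), while Cd3d, Cd3g and Icos did not pass. The part of these shifts in the values of the proteasome genes was not tested.

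**Figure D2:**
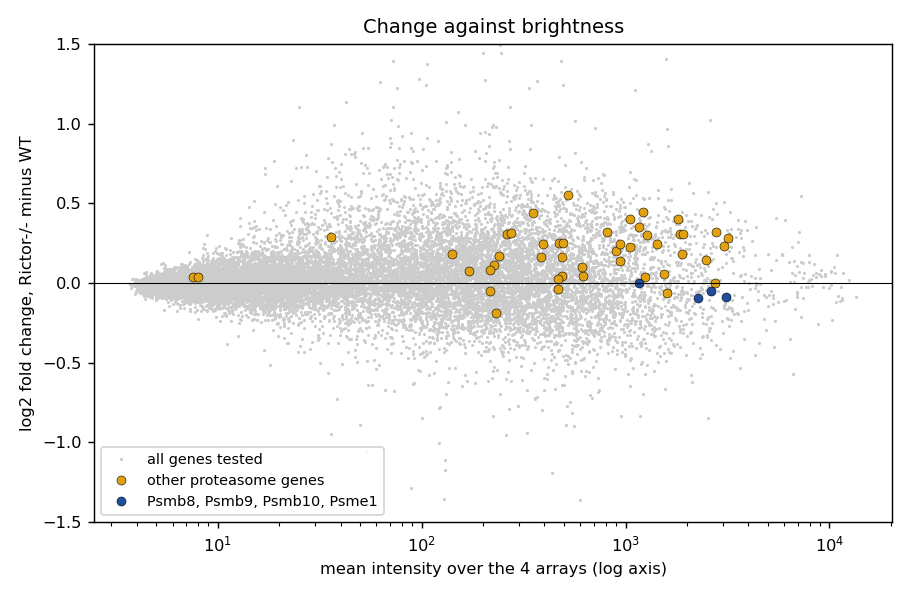
Log2 fold change, Rictor-/- minus WT, against mean intensity over the 4 arrays on a log axis, for all genes tested (grey), the immunoproteasome genes (blue) and the other proteasome genes (yellow). Of all genes, 7 lie beyond the plotted limit of 1.5. Of the 50 proteasome genes, 45 have a mean intensity of at least 200.

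Among the catalytic subunits of the inner ring, each inducible subunit takes the place of a known constitutive one. The constitutive genes are known to respond to the transcription factors Nrf1 and Nrf2 through antioxidant response elements. The inducible genes are known to respond to interferon through STAT and IRF factors. Whether this control has a part in the values was not tested. Promoters of some genes of both kinds are printed here. They are taken from RefSeq (GRCm38.p6), read 5′ to 3′ on the strand of the gene and end at the base before its annotated start. Capitals mark matches to any of the 6 motifs given further below. Psmb5 lies at chr14:54617996-54618245 on the minus strand, Psmb6 at chr11:70525107-70525356 on the plus strand, Psmb8 at chr17:34197945-34198194 on the plus strand and Psmb9 at chr17:34187331-34187555 on the minus strand. The Psmb9 stretch is the whole 225 bases between its start and that of Tap1, a subunit of the peptide transporter for class I, which is read in the opposite direction.
Psmb5 promoter: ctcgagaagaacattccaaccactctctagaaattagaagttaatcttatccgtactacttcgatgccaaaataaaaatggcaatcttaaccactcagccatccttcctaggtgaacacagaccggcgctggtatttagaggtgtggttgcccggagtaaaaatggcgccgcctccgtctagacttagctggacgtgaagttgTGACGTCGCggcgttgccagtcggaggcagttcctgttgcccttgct
Psmb6 promoter: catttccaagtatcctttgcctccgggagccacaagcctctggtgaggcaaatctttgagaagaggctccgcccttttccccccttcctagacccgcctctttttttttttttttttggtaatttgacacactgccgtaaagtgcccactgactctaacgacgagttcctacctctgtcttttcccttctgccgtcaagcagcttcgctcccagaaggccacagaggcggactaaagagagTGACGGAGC
Psmb8 promoter: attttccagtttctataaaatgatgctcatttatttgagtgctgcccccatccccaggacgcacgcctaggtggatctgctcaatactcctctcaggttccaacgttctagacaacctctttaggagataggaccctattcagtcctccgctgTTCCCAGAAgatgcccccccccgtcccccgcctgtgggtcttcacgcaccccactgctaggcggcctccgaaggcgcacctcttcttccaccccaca
Psmb9 promoter: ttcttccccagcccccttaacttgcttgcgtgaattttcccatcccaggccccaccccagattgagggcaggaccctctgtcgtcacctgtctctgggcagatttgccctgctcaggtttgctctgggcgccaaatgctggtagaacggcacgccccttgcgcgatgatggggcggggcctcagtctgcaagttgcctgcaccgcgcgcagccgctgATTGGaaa
In Psmb5 and Psmb6 the capitals are a match to the antioxidant response element core, which begins 47 and 9 bases before the start. In Psmb8 they are a match to the STAT pattern, 97 bases before the start, and in Psmb9 a CCAAT box on the opposite strand, 8 bases before it. Neither Psmb7, which had no promoter window, nor Psmb10, whose window matched none of the 6 motifs, is printed.

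Psmb7, the constitutive beta2 subunit with trypsin-like activity, had the largest log2 fold change of all proteasome genes. Its intensity was 646 and 607 in Rictor-/- arrays, against 429 and 416 in WT arrays (log2 fold change 0.55, standard error 0.05, adjusted p = 2.23e-05). Psmb10, the beta2i subunit that takes its place, read 1188 and 1152 in Rictor-/- arrays, against 1181 and 1159 in WT arrays. The groups overlapped, and the log2 fold change of -0.0004 had a 95% interval of -0.10 to 0.10 (adjusted p = 0.996), which leaves out the change of Psmb7.

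Psmb6, the constitutive beta1 subunit with caspase-like activity, read 1043 and 998 in Rictor-/- arrays, against 849 and 870 in WT arrays. It rose by a log2 fold change of 0.24 (adjusted p = 0.00281). Psmb9 (beta1i) read 2255 and 2122 in Rictor-/- arrays, against 2393 and 2288 in WT arrays, a log2 fold change of -0.10 with an interval of -0.20 to 0.003 (adjusted p = 0.180). Both Rictor-/- arrays lay below both WT arrays for Psmb9, but the difference did not pass the test.

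Psmb5, the constitutive beta5 subunit with chymotrypsin-like activity and the main target of bortezomib, read 970 and 950 in Rictor-/- arrays, against 848 and 820 in WT arrays. This was a rise of 0.20 on the log2 scale (adjusted p = 0.00898). Psmb8 (beta5i) read 3070 and 2976 in Rictor-/- arrays, against 3195 and 3229 in WT arrays, so that the groups did not overlap. Its log2 fold change was -0.09, with an interval of -0.17 to -0.001 and an adjusted p of 0.161 from limma, so that it did not pass over all genes. A second, dim probe set of Psmb8 had a log2 fold change of -0.03.

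The change of each inducible subunit was then set against that of its constitutive partner within every array. The difference of log2 intensities, whose size depends on the probe sets and only whose change between groups can be read, was 0.86 and 0.91 in Rictor-/- arrays for Psmb10 minus Psmb7, against 1.43 and 1.44 in WT arrays. For Psmb9 minus Psmb6 it was 1.10 and 1.08 in Rictor-/- arrays, against 1.48 and 1.38 in WT arrays. For Psmb8 minus Psmb5 it was 1.65 and 1.63 in Rictor-/- arrays, against 1.89 and 1.96 in WT arrays. In all 3 pairs both Rictor-/- arrays lay below both WT arrays, by 0.55, 0.34 and 0.29 on the log2 scale. A two-sided exact permutation test gave p = 0.333 for each of the 3 pairs, before and after adjustment over them, which is the smallest value that 2 arrays against 2 allow. The differences between groups were larger than the spread between replicates, and no other test of them was run.

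**Figure D3:**
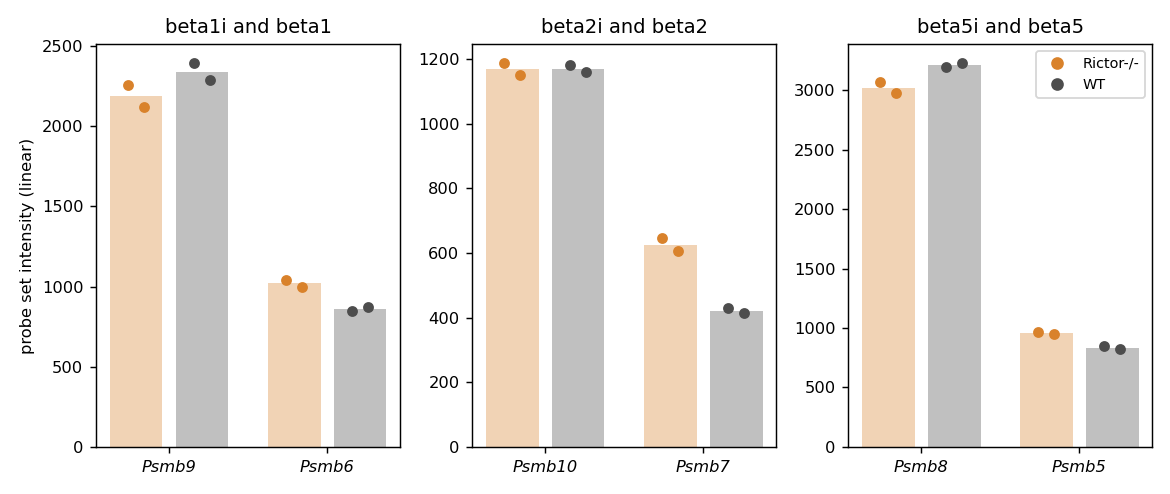
Intensity of the probe set (linear scale, from 0) for the inducible subunit on the left and the constitutive subunit on the right of each panel, with Rictor-/- in orange left of WT in grey. Points are the 2 arrays of a group and bars are their mean. The constitutive subunits Psmb6, Psmb7 and Psmb5 stand higher in Rictor-/- arrays, and heights of different genes cannot be set against each other.

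Psme1, the alpha subunit of the interferon-induced PA28 cap, read 2531 and 2608 in Rictor-/- arrays, against 2722 and 2596 in WT arrays. The groups overlapped, and the log2 fold change was -0.05 with an interval of -0.14 to 0.04 (adjusted p = 0.512). Psme2, its partner, has 1 probe set here, which the annotation also gives to Psme2b, and no value is given. Over the 4 immunoproteasome genes the median log2 fold change was -0.07.

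In the outer rings of the core, 6 of the 7 alpha genes rose, with a median log2 fold change of 0.28. Psma5 led them, with 1410 and 1414 in Rictor-/- arrays, against 1027 and 1043 in WT arrays (log2 fold change 0.44, adjusted p = 2.37e-05). A second bright probe set of Psma5 gave 0.28, so that its lead rests on the probe set read. Psma4 followed, with 3185 and 2994 in Rictor-/- arrays, against 2350 and 2592 in WT arrays (0.32, adjusted p = 0.0007 from limma). Psma1, Psma2, Psma3 and Psma7 had log2 fold changes of 0.23 to 0.30, all with separate groups. A second, dim probe set of Psma3 pointed the other way, at -0.24 with overlapping groups.

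Psma6 was the exception among the core genes. It read 2831 and 2661 in Rictor-/- arrays, against 2753 and 2723 in WT arrays, and its log2 fold change of 0.003 had an interval of -0.09 to 0.10. Its next brightest probe set gave 0.001, and the sign of the main probe set turned with the scaling, to -0.0073 after median centring and -0.021 after quantile normalization.

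All 7 constitutive beta genes rose, with a median log2 fold change of 0.31. Besides the catalytic subunits, the ring holds Psmb1, Psmb2, Psmb3 and Psmb4. Psmb2 read 1221 and 1176 in Rictor-/- arrays, against 903 and 901 in WT arrays (log2 fold change 0.40, adjusted p = 6.06e-05). Psmb3 read 2106 and 1998 in Rictor-/- arrays, against 1553 and 1546 in WT arrays, and 2 probe sets gave nearly one value, 0.40 and 0.39. Psmb1 read 2139 and 1945 in Rictor-/- arrays, against 1667 and 1624 in WT arrays (0.31). Psmb4 was lowest at 0.15, and its second probe set gave 0.12. The summed intensity of the 14 constitutive core genes was 27783 and 26389 in Rictor-/- arrays, against 22674 and 22508 in WT arrays, while that of the 4 immunoproteasome genes was 9044 and 8857 in Rictor-/- arrays, against 9492 and 9272 in WT arrays.

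The count in the core moved with the arrays used, as did the count over all genes. With WT array 1 left out, 7 of the 14 core genes passed, and with WT array 2 left out 5 passed, while the median log2 fold change of the core lay between 0.23 and 0.32 over the 4 fits that each left out an array.

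A pair of core genes outside these rings, the testis form Psma8 and the thymic cortex form Psmb11, read between 7.01 and 8.39 on every array, which is dimmer than the middle of all probe sets.

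In the 19S cap, 7 of 17 subunits rose (median log2 fold change 0.16). The share that rose was 27.5% among all genes with a mean intensity of at least 200. Of the 6 ATPases of its base, which form the unfolding ring, Psmc1, Psmc4 and Psmc6 rose and Psmc2, Psmc3 and Psmc5 did not pass. Psmc6 had the largest difference, with 932 and 883 in Rictor-/- arrays, against 731 and 714 in WT arrays (log2 fold change 0.32, adjusted p = 0.000531). Psmc2 had the smallest, with 1301 and 1230 in Rictor-/- arrays, against 1246 and 1218 in WT arrays (0.04, adjusted p = 0.671), and its groups overlapped. A dimmer probe set of Psmc4 gave -0.02 where the brightest gave 0.25. The 7 calls in the cap became 3 with WT array 1 left out and 2 with WT array 2 left out.

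Of the 11 other subunits of the base and lid, 4 rose, where 27.5% of all genes with a mean of at least 200 did so. Psmd6, a subunit of the lid, read 1326 and 1276 in Rictor-/- arrays, against 1001 and 1029 in WT arrays (log2 fold change 0.35, adjusted p = 0.000155). A dimmer probe set of Psmd6 gave 0.13 and did not pass over all probe sets. Psmd8 and Psmd12, also of the lid, rose by 0.25 and 0.17 on the log2 scale, and Psmd14 by 0.18. The call of Psmd12 held in 5 of 12 other limma fits and was lost, among others, in each fit with an array left out. Psmd14 is the deubiquitinase that removes the ubiquitin chain from a substrate as it enters. The scaffold subunits Psmd1 and Psmd2 had log2 fold changes of 0.16 (adjusted p = 0.0501 from limma) and 0.10 (adjusted p = 0.268), and the ubiquitin receptor Psmd4 one of 0.06 (adjusted p = 0.453). Neither of the scaffold subunits passed.

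The only subunits of the standard 26S particle with negative values stood in this group. Psmd3, a structural subunit of the lid, read 224 and 209 in Rictor-/- arrays, against 257 and 240 in WT arrays. The groups did not overlap, and the log2 fold change was -0.19 (standard error 0.07, adjusted p = 0.0623). It passed as lower in 4 other fits, among them median centring (adjusted p = 0.0417), and its adjusted p from limma ran from 0.0376 to 0.335 over the alternatives. Psmd11 and Psmd13, also of the lid, had log2 fold changes of -0.06 and -0.05. Psmd11 was read by 8 probe sets, whose log2 fold changes ran from -0.15 to 0.10.

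Proteasomes are built with the help of chaperones that are not part of the finished particle. Pomp, which carries beta subunits onto the alpha ring and is degraded by the first completed core, read 2187 and 2041 in Rictor-/- arrays, against 1705 and 1699 in WT arrays (log2 fold change 0.31, adjusted p = 0.000382). Psmg3, which with Psmg4 guides the alpha ring, read 331 and 283 in Rictor-/- arrays, against 250 and 236 in WT arrays (0.32, adjusted p = 0.00834). Psmg1 and Psmg2 form another pair of the same process. Psmg2 rose by 0.25 on the log2 scale (adjusted p = 0.0167) and Psmg1 had a log2 fold change of 0.05 (adjusted p = 0.658), so that 1 partner of each pair passed and the other, Psmg1 and Psmg4, did not. Whether the partners differ was not tested.

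Of the 3 chaperones of the 19S base, which hold ATPases before they join the particle, 2 rose. Over all genes 12.5% did so, and 27.5% of those with a mean intensity of at least 200. Psmd10, also known as gankyrin, read 419 and 399 in Rictor-/- arrays, against 308 and 286 in WT arrays (log2 fold change 0.44, adjusted p = 0.00021 from limma). Psmd5 read 272 and 310 in Rictor-/- arrays, against 240 and 223 in WT arrays (0.31, adjusted p = 0.0080). Psmd9 had a log2 fold change of 0.18 and did not pass (adjusted p = 0.166).

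The alternative caps and the inhibitor PI31 gave no calls. Psme3, which forms the nuclear PA28-gamma cap, read 179 and 173 in Rictor-/- arrays, against 159 and 175 in WT arrays (log2 fold change 0.07, adjusted p = 0.558). Psme4, the PA200 cap of spermatogenesis and DNA repair, read 445 and 477 in Rictor-/- arrays, against 470 and 478 in WT arrays (-0.04, adjusted p = 0.716). Psmf1, which encodes PI31, read 239 and 235 in Rictor-/- arrays, against 216 and 220 in WT arrays (0.11, adjusted p = 0.238), with separate groups. Its dimmer probe sets ran down to -0.11.

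Psmc3ip and Psme3ip1 entered by name only and are not part of the particle. Psmc3ip, a cofactor of meiotic recombination, is dim, with 43.94 and 38.21 in Rictor-/- arrays, against 32.36 and 29.15 in WT arrays, and it rose by 0.29 on the log2 scale (adjusted p = 0.0346). Psme3ip1, a partner of the PA28-gamma cap, had a log2 fold change of 0.02 with overlapping groups. Without them, 25 of 48 genes rose.

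Promoter windows from 250 bases before to 50 bases after the start were found in RefSeq for 42 of the 50 genes, and Psma8, Psmb1, Psmb2, Psmb7, Psmc3, Psmd3, Psmd7 and Psmg2 had none in that table. Both strands were searched for 6 motifs. The antioxidant response element core TGACNNNGC lay in 6 of the 42 genes (14.3%), against 12.4% of all 32851 windows. Its carriers were Psmb5, Psmb6, Psmc6 and Psmd12, which rose, and Psmd9 and Psme4, which did not pass. The ETS site CCGGAAGT was the one with the widest gap, in 10 genes (23.8%), against 3.89% of all windows.

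The 10 genes with the ETS match were divided, since 5 rose (Pomp, Psmc1, Psmd12, Psmd6 and Psmg3) and 5 did not pass (Psma6, Psmc2, Psmd13, Psme3 and Psme4). Over all 42 genes with a window 22 rose. The Pomp promoter, at chr5:147860378-147860627 on the plus strand of GRCm38.p6, is printed as the example among the called genes, with its match, on the opposite strand, in capitals 50 bases before the start.
Pomp promoter: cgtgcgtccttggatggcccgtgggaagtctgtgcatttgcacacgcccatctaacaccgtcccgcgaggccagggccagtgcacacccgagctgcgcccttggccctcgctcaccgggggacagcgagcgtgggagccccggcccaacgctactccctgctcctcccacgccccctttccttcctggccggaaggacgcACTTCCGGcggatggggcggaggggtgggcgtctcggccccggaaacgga
The interferon response element core GAAANNGAA lay in 8 genes (19%), against 8.56% of windows. Of these, Pomp, Psmb3 and Psmb4 rose, and Psmc2, Psmd4, Psmd9, Psme1 and Psmg4 did not pass. The match of Pomp does not lie wholly within its printed stretch, so no capitals mark it. The STAT pattern TTCNNNGAA lay in 3 (7.14%), against 8.30%, which were Psmb8, Psmd2 and Psmg1, none of which passed, and CCAAT lay in 16 (38.1%), against 37.4%. The element TGACGTCA was in none, against 1.79%. A match is a run of letters and not a site of binding.

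Genes around the proteasome had calls in both directions, as had the whole array. Of all genes 12.5% rose and 7.19% fell. Of those with a mean intensity of at least 200, 27.5% rose and 20.4% fell. Of 12 genes that make or deliver ubiquitin chains, 2 rose and 3 fell (median log2 fold change -0.03). Those that fell were the unfoldase Vcp, with 1197 and 1220 in Rictor-/- arrays, against 1485 and 1472 in WT arrays (-0.29, adjusted p = 0.000451), and the shuttle factors Ubqln1 (-0.30) and Ubqln2 (-0.43). Uba6, an E1 enzyme, rose by 0.30 and Ufd1, a cofactor of Vcp, by 0.23 on the log2 scale.

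Of 10 partners bound to the particle, 1 rose and 2 fell, where 12.5% of all genes rose and 7.19% fell. The shares were 27.5% and 20.4% among genes with a mean intensity of at least 200. The one that rose was Sem1, itself a small subunit of the lid that the naming rule leaves out. It read 2181 and 2099 in Rictor-/- arrays, against 1593 and 1666 in WT arrays (log2 fold change 0.39, adjusted p = 6.07e-05). Akirin2, which brings proteasomes into the nucleus, fell by 0.30, and Zfand5, which activates the particle, fell by 0.33 on the log2 scale. The deubiquitinases Usp14 and Uchl5 had log2 fold changes of 0.04 and 0.07 and did not pass.

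In the pathway by which Nrf1 induces proteasome genes, 1 of 8 genes rose, 2 fell and 5 did not pass. Over all genes 12.5% rose and 7.19% fell, and 27.5% and 20.4% among those with a mean intensity of at least 200. Ngly1, the glycanase that edits Nrf1 after it leaves the endoplasmic reticulum, read 976 and 932 in Rictor-/- arrays, against 569 and 607 in WT arrays (log2 fold change 0.68, adjusted p = 3.62e-06). Nfe2l1, which encodes Nrf1, read 189 and 164 in Rictor-/- arrays, against 211 and 186 in WT arrays (-0.16, adjusted p = 0.220), with overlapping groups. Mafg, a DNA binding partner of Nrf1 and Nrf2, read 168 and 176 in Rictor-/- arrays, against 271 and 265 in WT arrays (-0.59, adjusted p = 3.56e-05). Keap1, the adaptor that marks Nrf2 for degradation, fell by 0.27 on the log2 scale.

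The genes of class I presentation, with the factors that induce them, load the peptides that the immunoproteasome supplies. Of 14 measured, 8 fell and 1 rose, with a median log2 fold change of -0.20. Among all genes with a mean intensity of at least 200, 20.4% fell and 27.5% rose. Tapbp, the tapasin bridge of the peptide loading complex, read 1236 and 1237 in Rictor-/- arrays, against 1554 and 1505 in WT arrays (-0.30, adjusted p = 0.000326). Calr and Pdia3, chaperones of the same complex, fell by 0.24 and 0.37 on the log2 scale, and Irf8, a factor induced by interferon-gamma, by 0.44.

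Psmb8 and Psmb9 lie in the MHC region with Tap1 and Tap2, in the order Psmb9, Tap1, Psmb8 and Tap2. Tap2 read 487 and 493 in Rictor-/- arrays, against 598 and 563 in WT arrays, and fell (log2 fold change -0.24, adjusted p = 0.00681). Tap1, which shares the printed stretch with Psmb9, read 1076 and 1081 in Rictor-/- arrays, against 1108 and 1118 in WT arrays, with separate groups, and did not pass (-0.04, adjusted p = 0.583). B2m, the light chain of class I, read 10245 and 9981 in Rictor-/- arrays, against 10396 and 10006 in WT arrays (-0.01). The count of 8 fell to 1 with WT array 1 left out and to 3 with WT array 2 left out.

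Of 17 interferon-induced genes, which share inducers with the immunoproteasome, 3 rose and 4 fell. Among all genes with a mean intensity of at least 200, 27.5% rose and 20.4% fell. The guanylate binding proteins Gbp3, Gbp7 and Gbp2 rose by 0.53, 0.33 and 0.21 on the log2 scale. Iigp1, Rsad2, Usp18 and Irf7 fell by 0.40, 0.39, 0.30 and 0.30. Like the whole array, the list had called genes on both sides of 0, with a median of -0.04.

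**Figure D4:**
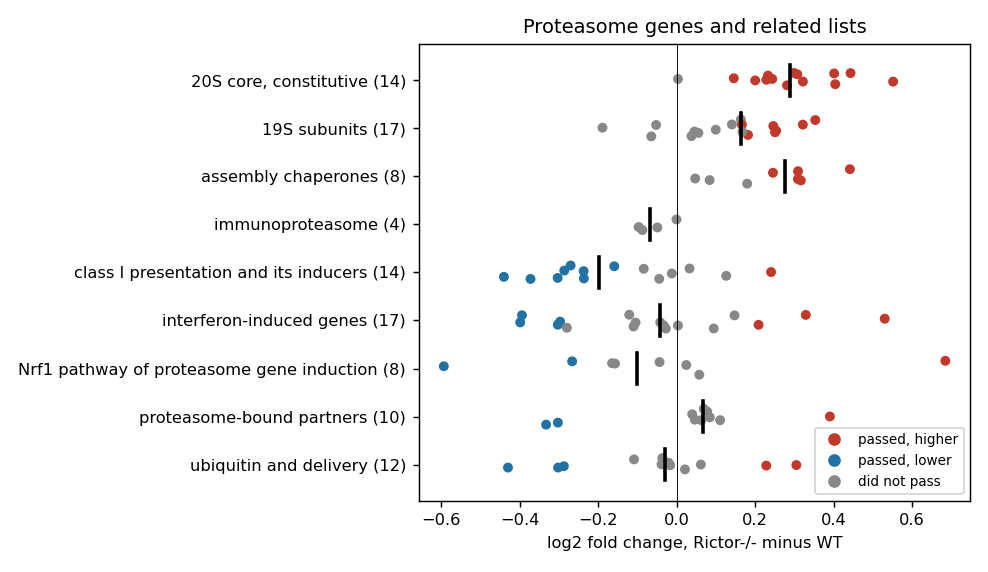
Log2 fold change, Rictor-/- minus WT, on the x axis for the genes of the proteasome groups and of related lists, with the number of genes measured in brackets. Each point is a gene, black bars are medians, and colours mark genes that passed as higher (red) or lower (blue). The constitutive core has a median of 0.29, against -0.07 for the immunoproteasome and -0.20 for the class I list.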

How the data were processed

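RNA of 2 Rictor-/- and 2 WT samples of TFH cells was hybridised to Affymetrix mouse arrays. Probe set intensities, on a linear scale, were deposited by the authors. MAS5 and RMA are named in their processing notes, with neither step nor version, and the sources used here do not state how values were scaled. The array annotation names 1 gene for 34945 of 45037 probe sets, several for 932 and none for 9160, and only the first were used. Each of 18193 genes was read by its brightest probe set.

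Log2 of the intensity plus 16 was fitted by genotype with limma 3.58.1 in R 4.3.3 (lmFit, eBayes with a trend in mean signal). Tests were two-sided with Benjamini-Hochberg adjustment over all genes and a threshold of 0.05, and intervals are 95% intervals of that fit. With 2 arrays per group the number of arrays limits the precision. Within-array differences of catalytic partners were compared by exact permutation. The methods' t-test (unpaired, one-tailed, here in the direction in which each gene moved) was run as an alternative. The others were a pseudocount of 1, median centring, quantile normalization, leaving out dim genes, the mean of all probe sets, adjustment over all probe sets, no trend, a replicate block and each array left out. The replicate numbers did not pair the samples (correlation of same-numbered deviations -0.03).

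In data simulated for this comparison over 18193 genes, 87.8% of changes of 1.25-fold and 100% of changes of 1.5-fold were found. Of the unchanged genes, 0.0834% were called. The simulation changed 200 genes at a time, while in the arrays 12.5% of all genes rose and 7.19% fell. These shares hold for the simulated data only and are not rates of found or false calls in the arrays. How shifts shared by an array, a pool or a cell mix would alter them was not tested. The proteasome genes, the lists and the rule for named genes were chosen with earlier results of these data known, and the promoter motifs after the values were seen. Values per array are given for the immunoproteasome genes, their partners, the other caps, Pomp and the 10 further proteasome genes with the largest log2 difference, and of each outside list up to 4 genes with the smallest p. The other genes named were chosen after their values were seen. Promoters came from RefSeq tables of GRCm38.p6.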

Additional observations from a re-analysis of the deposited data

How the results depend on the processing

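The 26 proteasome genes that rose kept that call with a pseudocount of 1, with median centring, with dim genes left out (48 tested) and with the replicate block. Of the 26, 25 kept it with quantile normalization, 24 with all probe sets adjusted together, 23 without the trend and 19 when probe sets were averaged. Over 12 limma fits, those with an array left out included, Pomp, Psma5, Psmb2, Psmb3, Psmb7, Psmc6, Psmd10 and Psmd6 kept the call in all 12, and Psmd12 in 5, Psmb4 and Psmg2 in 7 and Psmc3ip and Psmg3 in 8. Psmd3 was called lower, as the 1 such gene, with median centring, with quantile normalization, with dim genes left out and with the replicate block. The other fits called 0 lower, and no fit called an immunoproteasome gene. When probe sets were averaged, the median log2 fold change was 0.13 over the 50 genes and 0.24 over the constitutive core, and 842 of all genes fell. Under the methods' t-test after adjustment 0 proteasome genes rose, 0 core genes, 0 subunits of the 19S cap and 0 genes of the class I list were called, and 3 genes rose and 3 fell over the whole array. Before adjustment that test gave 28 proteasome genes as higher and 1 as lower at an unadjusted p under 0.05, where it gave 17.3% of all genes as higher and 12.3% as lower. Its p was one-tailed in the direction each gene moved, which is more lenient than a two-sided p under 0.05.

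With an array left out, the proteasome genes called higher ranged from 9 to 24 (12 without WT array 1, 9 without WT array 2), those of the core from 5 to 13, those of the 19S cap from 2 to 7 and class I genes called lower from 1 to 7. Over all genes, the calls ranged from 930 to 2000 higher and from 457 to 1048 lower, so that each such fit called fewer genes over the whole array. The core median ranged from 0.23 to 0.32.

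Log2 fold changes near 0 turned sign. Psma6 was -0.00728 after median centring, -0.0208 after quantile normalization and -0.0531 when probe sets were averaged, where Psmd13 was 0.069 and Psmf1 -0.00118. With an array left out, the values ranged from -0.0411 to 0.0478 for Psma6, -0.00199 to 0.0776 for Psmc2, -0.0188 to 0.109 for Psmc5, -0.0891 to 0.00996 for Psme4, -0.0221 to 0.0212 for Psmb10 and -0.0951 to 0.142 for Psme3ip1. None of these passed in any fit. Whether these turns have a cause beyond small values was not tested. Probe set intensities of different genes are not on one scale, so no gene's amount of mRNA can be set against another's.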
